A study of Mus musculus with 12 samples.

Results

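B-lineage transcripts were examined in dendritic cells sorted from mouse skin-draining lymph node and spleen. The 7 genes, Fcrla, Ms4a1, Bank1, Cd79a, Cd79b, Pax5 and Ebf1, were chosen by name from 19938 genes measured on the arrays. Fcrla, Ms4a1 and Bank1 were picked because their intensity was lower in lymph node in these same data, so their tissue difference is given below as a description with no test. Cd79a, Cd79b, Pax5 and Ebf1 were added as classical B cell genes, and their tissue difference was tested.

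The study measured RNA from sorted type 1 conventional dendritic cells (cDC1) on 12 Affymetrix arrays, 3 in each of 4 groups, to compare these cells with and without CD40, a receptor through which T cells license dendritic cells. All mice were naive, of C57BL/6 background, and homozygous for a floxed Cd40 allele (CD40 fl/fl). The 4 groups were skin-draining lymph node cDC1 of Xcr1 Cre/+ CD40 fl/fl mice, lymph node cDC1 of Xcr1+/+ CD40 fl/fl mice, spleen cDC1 of Xcr1 Cre/+ CD40 fl/fl mice and spleen cDC1 of Xcr1+/+ CD40 fl/fl mice. Mice with the Xcr1 Cre allele are called Cre and the Xcr1+/+ mice control. Cre is driven by Xcr1, which encodes a chemokine receptor of cDC1. Cells of both tissues were sorted as B220-negative, XCR1-positive, Sirpa-negative cells high for MHC class II, with intermediate CD11c in lymph node, where the labels call them migratory, and high CD11c in spleen. B220 is the B cell form of CD45, so the gate was set to leave out B cells. Between 100 pg and 2 ng of total RNA was labelled per array. Ages are not given, and nothing in the labels says whether replicates came from separate animals, so every p-value measures only the spread between these arrays, which may be technical.

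In B cells, EBF1 and PAX5 switch on and maintain the B-lineage program. The immunoglobulin receptor signals through CD79A and CD79B, which pass the signal to SYK, BTK and PLCG2 with the help of adaptors such as BLNK, BCAP (Pik3ap1) and BANK1. FCRLA is an intracellular Fc receptor-like protein best known from B cells, and MS4A1 is the surface protein CD20. Dendritic cells share several components of the signalling chain with B cells, and among transcription factors they share IRF8, PU.1 (Spi1) and BCL11A.

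Values are intensities on the linear scale after the authors' RMA normalization, and the median intensity per array lay between 66.1 and 74.4. Olfactory receptor genes, taken here as mostly silent in these cells, served as a measure of background. The 95th percentile of their 1023 probe sets was 50.0 to 63.6 per array. A probe set over that level on the same array is called above background here. By this measure 54.8% of genes were above background on all 6 lymph node arrays and 55.8% on all 6 spleen arrays. All 12 genes of a cDC1 identity list were above background on every array. Their summed intensity was 13386.0 to 18015.5 on the lymph node arrays and 34026.4 to 46842.6 on the spleen arrays. Arrays with the same replicate number deviated from their group means together. Correlations across genes were 0.57 to 0.73 among the arrays numbered 1, 0.31 to 0.45 among those numbered 2 and 0.29 to 0.47 among those numbered 3. Pairs with different numbers ran from -0.63 to 0.56, with a median of -0.45, so their range overlapped that of numbers 2 and 3.

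Cd40, the gene the Cre mice should lack in cDC1, went against the labels on the arrays numbered 3. On the lymph node arrays 1, 2 and 3, Cd40 had intensities of 1427, 1388 and 3358 in the Cre group and 2138, 2777 and 1542 in the control group. On the spleen arrays it had 365, 214 and 569 in the Cre group and 572, 525 and 309 in the control group. For numbers 1 and 2 the array labelled Cre was the lower one in both tissues, at 0.407 to 0.668 times the array labelled control. For number 3 the array labelled Cre was the higher one, at 2.18 times the control array in lymph node and 1.84 times in spleen. The labels do not say which part of Cd40 is floxed, so it is not known whether the probes lie within it. Genotype below therefore means the label, and genotype differences are given with and without the arrays numbered 3.

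Fcrla, Ms4a1 and Bank1 were above background on all 6 spleen arrays and lay near or under it in lymph node. With Cd79b, 4 of the 7 genes were above background on all 6 spleen arrays, close to the 55.8% of all genes, against 1 of 7 on all 6 lymph node arrays, where 54.8% of all genes were. Both counts were set in large part by the choice of the 3 picked genes, so nothing is read from either. Cd79a and Ebf1 were above background on none of the 12 arrays. The plot of intensities by array shows these patterns for the 7 genes.

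**Figure D1:**
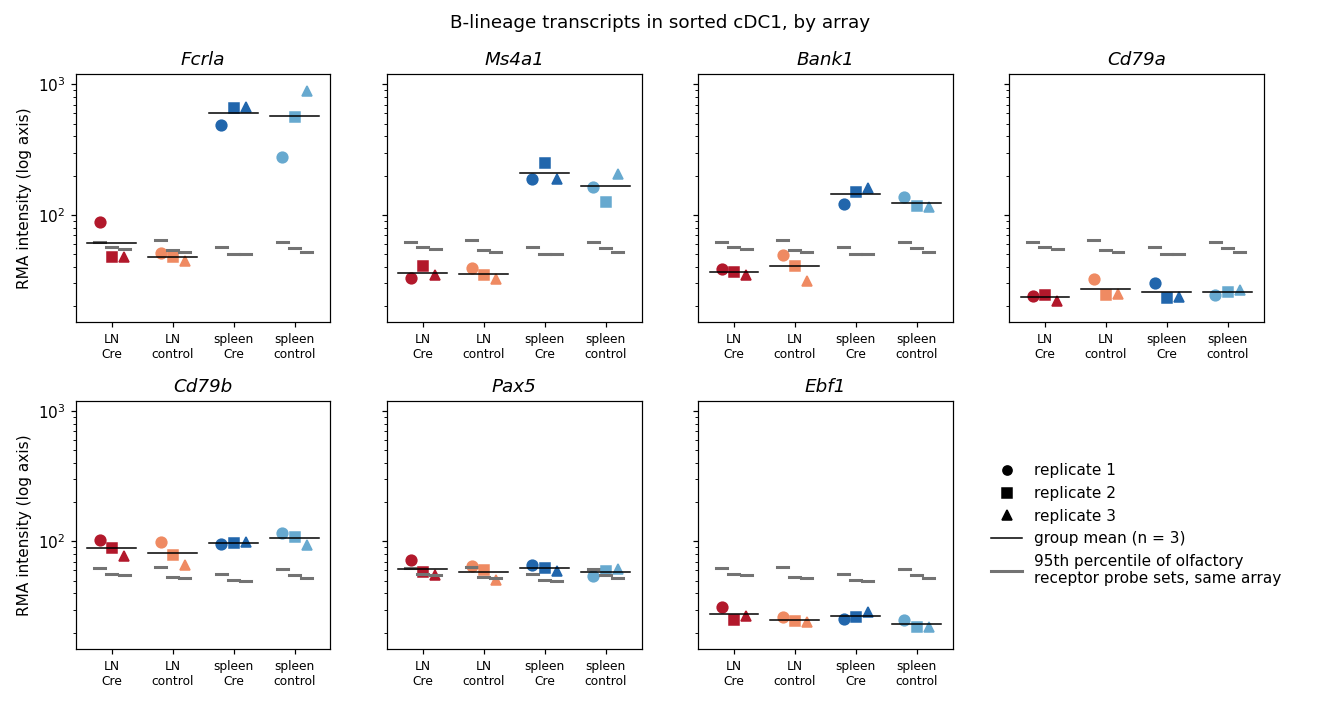
RMA intensity (log axis) of the 7 genes on each array, by group, with lymph node (LN) groups left of spleen groups and Cre left of control; symbols give the replicate number, black lines the group mean (n = 3) and grey bars the background of the same array. Fcrla, Ms4a1 and Bank1 lie above the grey bars on all 6 spleen arrays, Cd79b on all 12 arrays, and Cd79a and Ebf1 on none.

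Fcrla (probe set 10360018, chromosome 1) had the widest tissue gap of the 7. The lymph node intensities of Fcrla were 88.3, 47.7 and 47.4 on the Cre arrays and 50.7, 47.2 and 44.6 on the control arrays. The spleen intensities were 489, 659 and 670 on the Cre arrays and 276, 567 and 890 on the control arrays. The lymph node and spleen arrays did not overlap, and in lymph node only Cre array 1 was above background. Group means were 61.1 ± 23.5 in lymph node Cre, 47.5 ± 3.1 in lymph node control, 606 ± 102 in spleen Cre and 578 ± 307 in spleen control (SD, n = 3 each). The log2 difference, lymph node minus spleen, was -3.36 in Cre mice and -3.45 in control mice (SE 0.34 each). In lymph node 5 of 6 arrays were not above background, so these differences are set against a level mostly not measured; in control mice, where no lymph node array was above it, Fcrla was at least 9.22-fold higher in spleen. Within spleen the control arrays spread most, with array 1 lowest and array 3 highest.

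Ms4a1 (probe set 10466172, chromosome 19), which encodes CD20, had intensities of 32.7, 40.5 and 34.7 on the lymph node Cre arrays and 39.3, 34.5 and 32.1 on the lymph node control arrays. On the spleen arrays it had 189, 251 and 187 in the Cre group and 164, 125 and 207 in the control group. No lymph node array was above background and the tissues did not overlap. The means were 36.0 ± 4.1 in lymph node Cre, 35.3 ± 3.7 in lymph node control, 209 ± 36 in spleen Cre and 165 ± 41 in spleen control (SD, n = 3 each). The log2 difference, lymph node minus spleen, was -2.53 in Cre mice and -2.20 in control mice (SE 0.18 each). Because the lymph node values are not above background, intensity there is only bounded, and set against the background level Ms4a1 was at least 3.21-fold higher in spleen.

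Bank1 (probe set 10502335, chromosome 3), the B cell scaffold protein with ankyrin repeats, had intensities of 38.6, 36.3 and 34.4 on the lymph node Cre arrays and 49.6, 40.2 and 30.9 on the lymph node control arrays. On the spleen arrays it had 120, 150 and 161 in the Cre group and 137, 117 and 114 in the control group. Again no lymph node array was above background and the tissues did not overlap. The means were 36.4 ± 2.1 in lymph node Cre, 40.2 ± 9.4 in lymph node control, 144 ± 21 in spleen Cre and 123 ± 13 in spleen control (SD, n = 3 each). The log2 difference, lymph node minus spleen, was -1.97 in Cre mice and -1.63 in control mice (SE 0.16 each), and set against background Bank1 was at least 2.32-fold higher in spleen. In sorted bulk cells, fewer cells carrying a transcript and less of it per cell cannot be told apart, for these and for all genes below.

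None of the 4 tested genes passed the test between tissues in either genotype, where 28.3% of all genes passed in Cre mice and 26.1% in control mice (limma, adjusted p under 0.05). Cd79b (probe set 10392142, chromosome 11), the signalling subunit Ig-beta, was the one gene of the 7 above background on all 12 arrays. Its intensities were 103, 89.3 and 77.1 in lymph node Cre, 99.6, 79.2 and 65.5 in lymph node control, 95.2, 96.7 and 98.9 in spleen Cre and 117, 107 and 93.4 in spleen control. The tissues overlapped. The log2 difference, lymph node minus spleen, was -0.12 in Cre mice (SE 0.15, adjusted p = 0.606 by limma) and -0.39 in control mice (SE 0.15, adjusted p = 0.083 by limma). With the replicate number as a block, the control difference passed the threshold of 0.05 (adjusted p = 0.0144 by limma), in a fit where 36% of all genes passed in control mice and 41% in Cre mice, as it also did without the arrays numbered 1 (adjusted p = 0.0124 by limma) and without lymph node control array 1 (adjusted p = 0.0126 by limma). Over all 22 alternatives its adjusted p ran from 6.71e-04 with array weights to 0.429 without the arrays numbered 2 (limma).

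Cd79a (probe set 10551025, chromosome 7), the partner subunit Ig-alpha, was not above background on any array. It had 24.0, 24.2 and 21.9 in lymph node Cre, 32.5, 24.2 and 24.8 in lymph node control, 29.9, 22.9 and 23.4 in spleen Cre and 24.2, 25.5 and 26.6 in spleen control. The groups overlapped, and the lymph node minus spleen difference was -0.11 in Cre mice (adjusted p = 0.544) and 0.08 in control mice (adjusted p = 0.749, both SE 0.12, limma). The values bound Cd79a rather than measure it.

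Pax5 (probe set 10512669, chromosome 4), the factor of B cell commitment, sat at the edge of background, above it on 5 of 6 lymph node arrays and on 5 of 6 spleen arrays. Its intensities were 71.6, 58.6 and 55.2 in lymph node Cre, 64.5, 60.0 and 50.6 in lymph node control, 65.5, 62.5 and 59.1 in spleen Cre and 54.3, 59.5 and 61.7 in spleen control. The groups overlapped, with differences of -0.02 in Cre mice and -0.01 in control mice (SE 0.12 each, adjusted p = 0.918 and 0.976 by limma).

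Ebf1 (probe set 10375360, chromosome 11), which acts upstream of Pax5 in B cell precursors, was not above background on any array. Its intensities were 31.5, 25.1 and 26.7 in lymph node Cre, 26.2, 24.5 and 24.3 in lymph node control, 25.3, 26.4 and 28.8 in spleen Cre and 24.8, 22.2 and 22.2 in spleen control. The groups overlapped, with differences of 0.04 in Cre mice and 0.12 in control mice (SE 0.10 each, adjusted p = 0.775 and 0.466 by limma).

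The promoters of the picked genes Fcrla and Bank1, of the tested B cell marker Fcrl1 and of the undetected Cd79a are shown to set the sequences upstream of spleen-high and undetected genes side by side. They are the 250 bases before the RefSeq start site (GRCm38.p6), 5′ to 3′ on the gene's strand, with matches to the motifs below in capitals. Of the 7 genes, 5 were matched by symbol to a RefSeq promoter: Fcrla, Bank1, Cd79a, Pax5 and Ebf1.
Fcrla, chr1:170927584-170927833, minus strand: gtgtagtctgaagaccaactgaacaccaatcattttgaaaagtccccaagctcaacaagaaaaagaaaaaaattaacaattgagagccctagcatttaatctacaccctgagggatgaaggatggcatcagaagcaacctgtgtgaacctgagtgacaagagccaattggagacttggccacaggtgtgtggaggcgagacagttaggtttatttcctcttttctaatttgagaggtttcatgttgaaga
Bank1, chr3:136326067-136326316, minus strand: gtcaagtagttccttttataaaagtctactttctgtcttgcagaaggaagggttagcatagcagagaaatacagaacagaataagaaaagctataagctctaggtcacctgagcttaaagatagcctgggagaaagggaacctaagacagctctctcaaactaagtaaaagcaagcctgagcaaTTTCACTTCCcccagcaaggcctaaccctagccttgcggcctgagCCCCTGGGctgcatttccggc
Fcrl1, chr3:87376137-87376386, plus strand: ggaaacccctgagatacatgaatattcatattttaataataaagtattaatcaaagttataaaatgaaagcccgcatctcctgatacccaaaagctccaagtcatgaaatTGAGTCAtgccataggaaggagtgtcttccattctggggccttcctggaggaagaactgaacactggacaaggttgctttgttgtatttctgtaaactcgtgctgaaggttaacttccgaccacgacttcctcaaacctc
Cd79a, chr7:24897247-24897496, plus strand: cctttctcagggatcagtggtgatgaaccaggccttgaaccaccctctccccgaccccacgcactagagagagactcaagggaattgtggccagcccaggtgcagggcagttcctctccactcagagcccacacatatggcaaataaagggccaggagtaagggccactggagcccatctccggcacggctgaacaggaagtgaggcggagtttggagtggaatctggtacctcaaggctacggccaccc
On both strands 5 motifs were searched: the octamer ATGCAAAT bound by OCT factors, the EBF core CCCNNGGG, the ETS-IRF element (GGAA, any 2 bases, GAAA), the AP-1 element TGANTCA and the E-box CAGCTG. The Bank1 window held the ETS-IRF element at positions -66 to -57 and the EBF core at positions -21 to -14, counted from the start site. The Fcrl1 window held the AP-1 element at positions -140 to -134, and the Cd22 window, not shown, the EBF core at positions -48 to -41. None of the 5 motifs was found in the windows of Fcrla, Cd79a, Pax5 or Ebf1, nor in those of Ralgps2, Pik3ap1 and Ms4a6c, which were searched too, and no matches overlapped. Of 32851 mouse promoter windows of this length, 1.60% held the octamer, 11.8% the EBF core, 2.30% the ETS-IRF element, 6.75% the AP-1 element and 13.0% the E-box. A match describes the letters in the window and is not evidence of a bound site. Only these exact letters were searched, so a missing match is not evidence that the window lacks a site.

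Most other defining B cell markers were near background in these sorted cells or did not differ between tissues. The list as analysed here held 15 genes. Of these, 5 were above background on all 6 lymph node arrays and 6 on all 6 spleen arrays. Cr2, Fcer2a, Vpreb3, Cxcr5 and Chst3 were above it on no spleen array. The summed intensity of the 15 was 831 to 1036 in lymph node and 1261 to 1545 in spleen. Most of that gap was Fcrl1 alone, at 43.0 to 67.8 in lymph node and 334 to 574 in spleen, so the sum does not describe the markers as a set. In both genotypes 3 of the 15 were lower in lymph node, beside 12.3% of all genes, and 1 was higher, beside 10.4% of all genes, and 11 did not pass in both (limma, adjusted p under 0.05). Their median log2 difference was 0.08 in Cre mice and 0.05 in control mice, beside 0.07 and 0.03 over all genes. The list was chosen with earlier results of these data known.

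Fcrl1, an Fc receptor-like surface protein of B cells, had intensities of 67.8, 52.5 and 58.0 in lymph node Cre, 59.0, 43.0 and 53.7 in lymph node control, 502, 574 and 543 in spleen Cre and 434, 334 and 452 in spleen control. The tissues did not overlap, 3 of 6 lymph node arrays were above background, and the difference was -3.19 in Cre mice (SE 0.16, adjusted p = 7.73e-09 by limma) and -2.97 in control mice (SE 0.16, adjusted p = 1.41e-08 by limma). Cd22, an inhibitory lectin of B cells, was above background on 2 of 6 lymph node arrays and on all 6 spleen arrays, and its fitted values fell by 1.34 on the log2 scale in Cre mice (SE 0.14, adjusted p = 6.19e-06 by limma) and by 0.99 in control mice (SE 0.14, adjusted p = 1.07e-04 by limma). Ralgps2, a guanine exchange factor enriched in B cells, was above background on no lymph node array and on 4 of 6 spleen arrays, only 1 of them a control array. Its fitted values fell by 0.88 in Cre mice and by 0.48 in control mice (SE 0.09 each, adjusted p = 4.98e-06 and 0.00111 by limma). These sizes lie mostly under background. Set against it, Ralgps2 was at least 1.05-fold higher in spleen in Cre mice, and no size can be read in control mice. Chst3 passed as the higher one (adjusted p = 7.08e-04 in Cre mice and 0.0305 in control mice by limma), but it was above background on no array, so no size is given. Ighm, the immunoglobulin mu chain, ran from 83.5 to 118 on the lymph node arrays and from 83.0 to 104 on the spleen arrays, and differed by 0.08 in Cre mice and 0.05 in control mice, past no threshold. Tnfrsf13c, the brightest of the 15 by mean log2 intensity, was above background on every array, at 134 to 201 in lymph node and 164 to 202 in spleen. It passed in neither genotype in the main fit, and in control mice under 2 of 22 alternatives. Cnr2, a cannabinoid receptor of immune cells, passed only in Cre mice, and the difference between genotypes did not pass. The plot of the defining markers shows all 15.

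**Figure D2:**
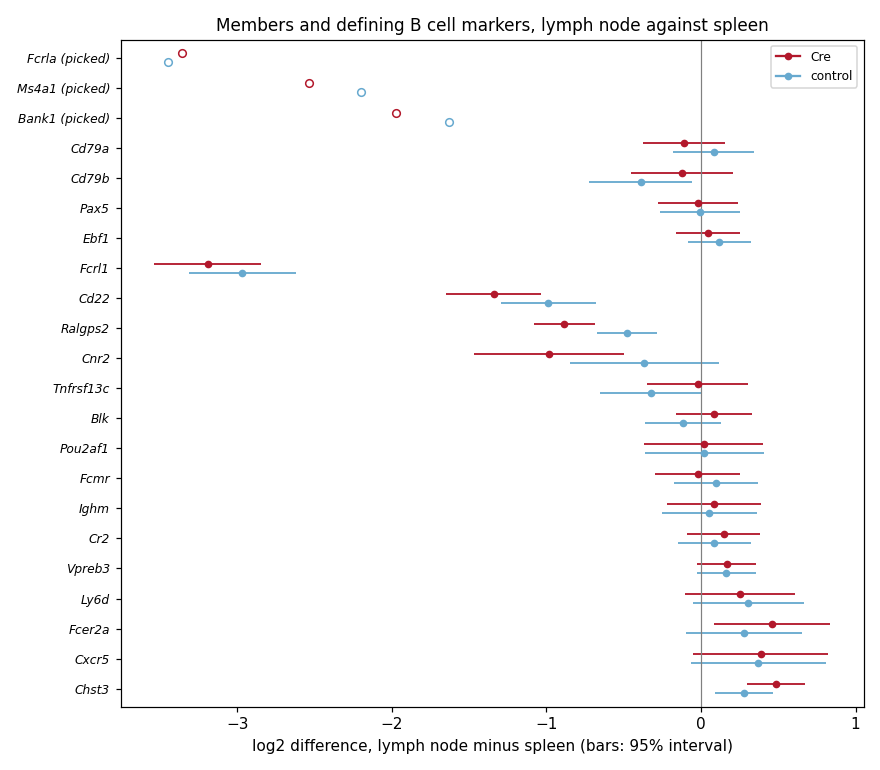
Log2 difference in intensity, lymph node minus spleen, in Cre mice (red) and control mice (blue) for the 7 genes and 15 defining B cell markers, with bars giving the 95% interval. Open points mark the 3 picked genes, which have no interval since their difference chose them; Fcrl1, Cd22 and Ralgps2 are lower in both genotypes, and most other markers lie near 0.

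B cell receptor signalling was followed through a list of genes linked to it, also chosen with earlier results known. Besides downstream genes the list held surface proteins, Fcgr2b, Cd72, Cd81 and Cd37, so its counts are not about the downstream chain alone. The list as analysed here held 18 genes. In both genotypes 11 of the 18 were lower in lymph node, beside 12.3% of all genes, and 2 were higher, beside 10.4%, with 5 that did not pass in both. The median log2 difference was -1.16 in Cre mice and -0.79 in control mice, beside 0.07 and 0.03 over all genes. The 11 that fell were the kinases Syk and Btk, the lipase Plcg2, Pik3ap1, Pik3cd, Vav1, Prkcb, the phosphatase Inpp5d, the inhibitory Fc receptor Fcgr2b and the tetraspanins Cd81 and Cd37. These genes are known to be used by dendritic cells and other myeloid cells as well as by B cells.

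Pik3ap1, which encodes the BCAP adaptor, had 121, 243 and 178 in lymph node Cre, 137, 209 and 161 in lymph node control, 1907, 2573 and 2346 in spleen Cre and 2040, 2410 and 2389 in spleen control. No arrays of the tissues overlapped, and the difference was -3.70 in Cre mice and -3.77 in control mice (SE 0.24 each, limma). Prkcb, a protein kinase C that relays receptor signals to NF-kB, differed by -2.88 and -2.86 (SE 0.18 each). Fcgr2b, which lies near Fcrla on chromosome 1 with Gm39701 between them in RefSeq, had 135, 135 and 94.1 in lymph node Cre, 81.9, 106 and 89.9 in lymph node control, 753, 983 and 865 in spleen Cre and 560, 608 and 917 in spleen control, a difference of -2.85 in Cre mice and -2.88 in control mice (SE 0.21 each). Fcrlb, the neighbour of Fcrla on its other side, differed by -0.14 in Cre mice and -0.26 in control mice (adjusted p = 0.625 and 0.418 by limma). Fcgr2b passed the test in both genotypes and Fcrlb in neither, though Fcrlb passed in control mice under 3 of 22 alternatives.

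Against that direction, Blnk, the adaptor that links SYK to PLCG2, was higher in lymph node. It had 222, 201 and 349 in lymph node Cre, 244, 310 and 190 in lymph node control, 50.1, 38.2 and 38.0 in spleen Cre and 36.8, 43.3 and 33.4 in spleen control. The spleen values were not above background, so the gene is only bounded there, at least 4.54-fold higher in lymph node. The fitted difference was 2.58 in Cre mice and 2.69 in control mice (SE 0.22 each, adjusted p = 6.99e-07 and 4.75e-07 by limma). Swap70, known for its role in B cell activation and in dendritic cells, was higher too, by 2.20 and 2.13. BLNK and BCAP are both adaptors downstream of the B cell receptor, and here Blnk was higher and Pik3ap1 lower in lymph node.

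Transcription factors of the B lineage were divided. Of 19 measured, 3 were lower in lymph node in both genotypes and 8 were higher, with 8 that did not pass in both, and the median difference was 0.49 in Cre mice and 0.39 in control mice. Beside these counts, 12.3% of all genes were lower and 10.4% higher in both genotypes. Bcl11a fell by 2.41 in Cre mice and by 2.32 in control mice, Ikzf1 by 1.57 and 1.61, and Spi1 by 0.62 and 0.63. Those higher were Spib, Tcf3, Tcf4, Irf4, Id2, Id3, Relb and Myb. Relb, an NF-kB factor of mature dendritic cells, was higher by 2.55 in Cre mice and by 2.35 in control mice, and Myb by 1.77 and 1.69. Irf8, required for cDC1, differed by -0.36 in Cre mice and -0.07 in control mice, and the Cre difference passed with the replicate block (adjusted p = 0.00421 by limma), with a range over alternatives of 0.00236 to 0.527. The plot of the signalling and transcription factor lists shows these values gene by gene.

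**Figure D3:**
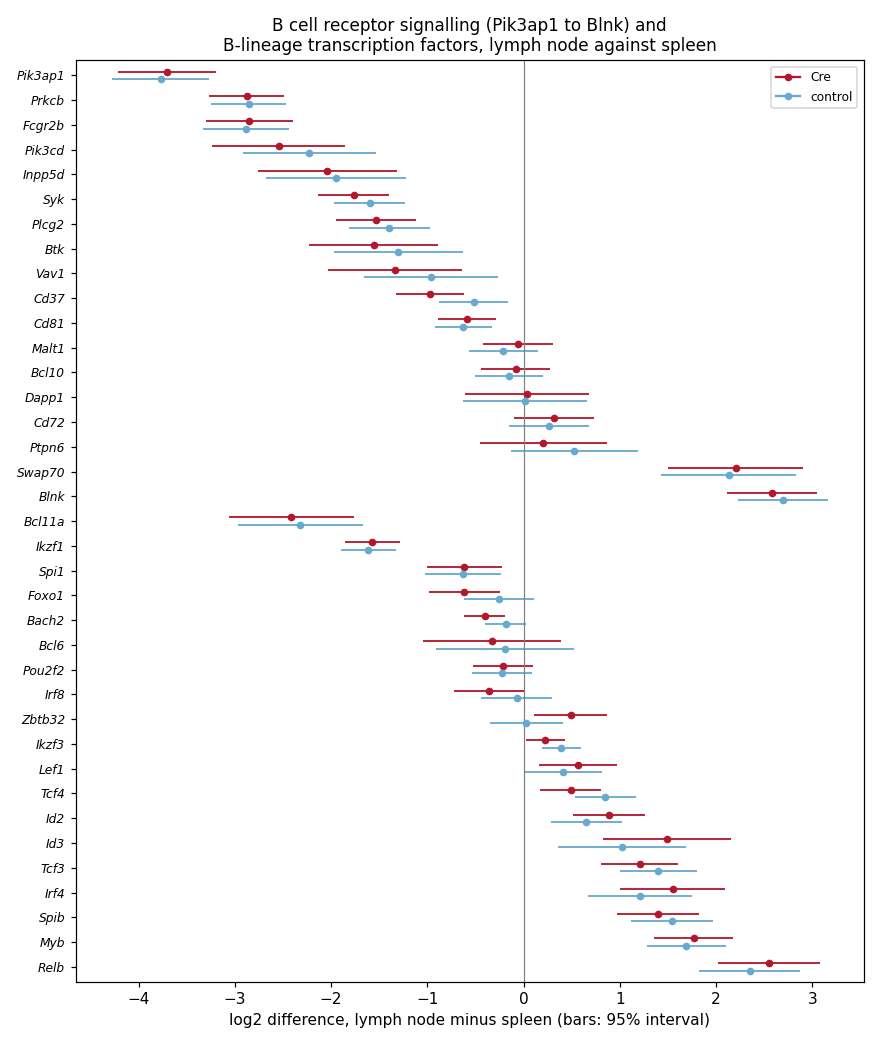
Log2 difference in intensity, lymph node minus spleen, in Cre mice (red) and control mice (blue) for the measured genes of the B cell receptor signalling list (upper block) and the B-lineage transcription factor list (lower block), with bars giving the 95% interval. In the signalling list 11 genes lie on the lower side in both genotypes, while Blnk and Swap70 lie on the higher side.

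The families of the picked genes were followed as well, beside 12.3% of all genes lower and 10.4% higher in lymph node in both genotypes. Of 5 relatives of Fcrla, Fcrl1 was lower in lymph node and Fcrlb, Fcrl5, Fcrl6 and Fcrls passed in no genotype in the main fit. In control mice Fcrlb passed under 3 of 22 alternatives and Fcrls under 1 of 21. Of 15 relatives of Ms4a1, 10 were above background on no spleen array, and 1 of the 15, Ms4a6c, was lower in both genotypes, with differences of -3.56 in Cre mice and -3.54 in control mice (SE 0.37 each). It was above background on 2 of 6 lymph node arrays and on no lymph node control array, so in control mice it is bounded, at least 8.85-fold higher in spleen. With the replicate block 4 of the 15 were lower in Cre mice, beside 20.4% of all genes, and 3 in control mice, beside 17.8%, and 1 was higher in each. Ms4a6c had 75.0, 34.6 and 55.4 in lymph node Cre, 56.5, 47.3 and 29.2 in lymph node control, 814, 620 and 468 in spleen Cre and 880, 345 and 405 in spleen control. Ms4a6b passed in Cre mice with a difference of -1.15 (adjusted p = 0.00327 by limma). No relative of Ebf1 (3 genes) or of Pax5 (8 genes) passed in either genotype, while under other settings Ebf2, Pax4, Pax6 and Pax9 each passed in 1 genotype under 1 or 2 alternatives.

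Lists of other cell types were followed between the tissues in the same arrays. Beside the counts in both genotypes given here, 12.3% of all genes were lower in lymph node and 10.4% higher. Of 13 measured T cell genes, 5 were higher in lymph node in both genotypes and 1, Cd5, was lower, and their summed intensity was 1401 to 2499 in lymph node and 1149 to 1398 in spleen. Cd3g had 513, 116 and 235 in lymph node Cre, 445, 241 and 176 in lymph node control, 138, 58.9 and 68.8 in spleen Cre and 95.4, 73.4 and 68.0 in spleen control. All 6 lymph node arrays but Cre array 2 were above every spleen array. With the replicate block 9 of the 13 were higher in Cre mice, beside 20.5% of all genes, and 8 in control mice, beside 18.2%. Of 9 plasma cell genes, Xbp1 was lower and Sdc1 and Prdm1 were higher in both genotypes, with a summed intensity of 908 to 1069 in lymph node and 1447 to 1926 in spleen. Most of that gap was Xbp1 itself, at 381 to 506 in lymph node and 988 to 1249 in spleen, so the sum does not describe the plasma cell genes as a set. Of 9 B precursor genes, Il7r was higher by 3.78 in Cre mice and by 3.56 in control mice. Of 10 NK cell genes 1 was lower, and of 9 plasmacytoid dendritic cell genes 3 were lower and 1 higher. Of 14 macrophage and monocyte genes 3 were lower and 1 higher, and the summed intensity was 1511 to 1645 in lymph node and 3338 to 3744 in spleen. The part of other cell types in the levels of the 7 genes was not tested. Among cDC1 identity genes 7 of 12 were lower in both genotypes and 2 higher, with Xcr1 differing by -3.55 in Cre mice and -3.71 in control mice, and of 8 measured migratory dendritic cell genes 7 were higher.

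Genes whose profile over the 12 arrays most resembled each of the 7 were found by Pearson correlation of log2 intensity, which for the picked genes mostly reflects the tissue contrast they share. For Fcrla these were Ern1 (r = 0.99), Hhex (r = 0.99) and Gna15 (r = 0.99). For Ms4a1 they were Igsf6, Prss30 and Cd300a, with r of 0.99 each. For Bank1 they were Agpat5, Plekhg3 and Pecam1, also with r of 0.99. Of the other 4 genes, Cd79a was closest to Drc1 (r = 0.94), Cd79b to Lipt2 (r = 0.92) and Pax5 to Cgrrf1 (r = 0.88). The closest to Ebf1 were Fcmr, an IgM receptor (r = 0.89), Hdx (r = 0.85) and the olfactory receptor gene Olfr121 (r = 0.85). Cd79a and Ebf1 were above background on none of the 12 arrays, so no link is read from their correlations.

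The genotype comparison asks whether the B-lineage transcripts differ between arrays labelled Cre and control. The Xcr1 Cre allele and the intended deletion of Cd40 come together in this design and cannot be told apart. None of the 7 genes passed the test in either tissue, nor did any of the 19938 genes (0%, limma). The unadjusted p was under 0.05 for 402 genes in lymph node (2.02%) and for 357 in spleen (1.79%), and with the replicate block for 1360 (6.82%) and 886 (4.44%). In lymph node the log2 difference, Cre minus control, was 0.30 for Fcrla (95% interval -0.43 to 1.04), 0.03 for Ms4a1 (-0.35 to 0.41) and -0.12 for Bank1 (-0.46 to 0.23). In spleen it was 0.21 for Fcrla (-0.52 to 0.95), 0.36 for Ms4a1 (-0.02 to 0.74) and 0.22 for Bank1 (-0.13 to 0.57). For Cd79a, Cd79b, Pax5 and Ebf1 the lymph node differences were -0.21, 0.15, 0.08 and 0.14, and the spleen differences -0.01, -0.12, 0.09 and 0.22. The median over the 7 was 0.08 in lymph node and 0.21 in spleen, beside -0.01 over all genes in each tissue. The difference of the genotype effect between tissues passed for none of the 7 genes.

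Without the arrays numbered 3, whose Cd40 went against the labels, the difference, Cre minus control, was in lymph node 0.41 for Fcrla, -0.02 for Ms4a1 and -0.25 for Bank1. In spleen it was 0.52 for Fcrla, 0.61 for Ms4a1 and 0.08 for Bank1. For Cd79a, Cd79b, Pax5 and Ebf1 the lymph node values were then -0.22, 0.11, 0.06 and 0.15, and the spleen values 0.08, -0.22, 0.17 and 0.14. None passed the test (adjusted p = 1 in spleen by limma). Cd40 itself was then lower by 0.79 in lymph node and by 0.97 in spleen without passing. By replicate number the spleen ratio, Cre over control, was 1.77, 1.16 and 0.753 for Fcrla, 1.15, 2.01 and 0.903 for Ms4a1 and 0.875, 1.28 and 1.42 for Bank1. The lymph node ratio was 1.74, 1.01 and 1.06 for Fcrla, 0.832, 1.18 and 1.08 for Ms4a1 and 0.779, 0.903 and 1.11 for Bank1. The 3 genes did not share an order of the replicates in either tissue. The plot of genotype differences shows the intervals over all arrays.

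**Figure D4:**
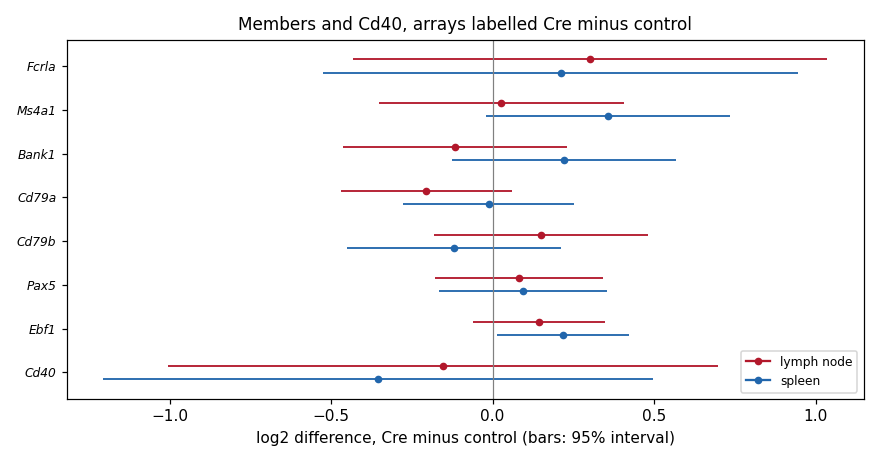
Log2 difference in intensity, Cre minus control by label, in lymph node (red) and spleen (blue) for the 7 genes and Cd40, with bars giving the 95% interval over all 12 arrays. All intervals but that of Ebf1 in spleen include 0, and no gene passed after adjustment.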

How the data were processed

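The deposited table holds intensities for 28853 probe sets on 12 arrays, which the authors had normalized by RMA (Affymetrix Expression Console), as the deposited labels' processing notes name it; the linear intensity scale was read from the values. Probe sets were named from GEO's platform annotation, updated through RefSeq Entrez numbers: 21789 had a single symbol, 1621 had several and were left out, and 5443 were not listed. The brightest single-symbol probe set stood for each gene, which gave 19938 genes, 999 of them with more than 1 probe set. Log2 intensities of all genes and all 4 groups were fitted together in limma 3.58.1 (R 4.3.3) with a trend, and p-values were adjusted by Benjamini-Hochberg over all genes with a threshold of 0.05. The script was tested on simulated data. RMA draws weak values together, so a difference between dim genes is compressed, and the number of arrays limits the precision. Replicate numbers come from the sample titles. Every same-numbered pair of arrays correlated above 0.1 in its deviations from the group means. Pairs with different numbers reached 0.56 as well, with a median of -0.45. The numbers were treated as pairing the arrays, and a fit with the number as a block was run beside the main one. Genes named beyond the 7 are those of the lists, the brightest and most changed of each B-lineage list, family relatives, and the 3 most similar profiles. The members and lists were chosen with earlier results of these data known.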

Additional observations from a re-analysis of the deposited data

How the results depend on the processing

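Across 22 alternatives (21 for Ms4a1 and Bank1, which a filter on dim genes removed) the picked genes kept their direction. Lymph node minus spleen ran from -3.80 to -3.04 in Cre mice and -3.95 to -3.02 in control mice for Fcrla. It ran from -2.62 to -2.11 and -2.39 to -1.80 for Ms4a1, and from -2.14 to -1.60 and -1.80 to -1.31 for Bank1. These 3 genes were picked for this fall in the same arrays, so their kept direction is a description and not support. The replicate block raised the genes called between tissues to 8170 in Cre mice and 7178 in control mice, and it made Cd79b pass in control mice, so that 1 of the 4 tested genes passed; among the 7 genes it changed no other call in these paired fits. Array weights gave 8933 and 9020 genes between tissues, 1 of the 4 tested genes and 8 defining markers in control mice, and for Cre minus control 51 genes in spleen, 2 in lymph node and 3 for the difference between tissues; the 51 included 1 of the 7, Ebf1 (adjusted p = 0.0363 by limma), and 1 defining marker, Fcrl1 (adjusted p = 0.0433 by limma), both with an adjusted p of up to 1 under other alternatives. Leaving out arrays gave 3081 to 7684 genes in Cre mice and 2865 to 6906 in control mice, and 0 to 1 of the 4 tested genes in control mice. Testing only genes above the median level left 2 defining markers in each genotype. With the highest Y-linked gene as background, 7 of the 7 genes were above it on all lymph node arrays and on all spleen arrays. That level was only 17.1 to 22.2 per array, near the median of the olfactory receptor probe sets at 18.3 to 22.4. All 15 measured defining markers were above it on all 12 arrays too, and the share over all genes was not counted. Nothing is therefore read from the 7 of 7, and the contrast between the tissues in genes above background depends on the background chosen. The cause of these shifts was not tested. Signal over background limits Cd79a, Ebf1 and Pax5 in both tissues, and Fcrla, Ms4a1 and Bank1 in lymph node.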

Other observations

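Jchain, the joining chain of secreted antibody, had an intensity of 163 on spleen Cre array 1 and 19.0 to 31.0 on the other spleen arrays and 19.5 to 29.1 on the lymph node arrays. Mzb1, another plasma cell gene, had 83.0 on the same spleen Cre array 1, against 48.0 to 71.9 on the other spleen arrays. Fcrla, Ms4a1 and Bank1 on that array lay within the range of the other spleen arrays. These 2 genes were chosen after their values were seen.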
